A study of Mus musculus with 28 samples.

Results

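The immediate early factors Egr1, Egr2 and Egr3, their corepressor Nab2, the ERK phosphatases Dusp4, Dusp5 and Dusp6, and the adaptor-type inhibitors Spry2, Spry4 and Spred1 were followed in RAS/DNP53-transformed embryonic fibroblasts of the mouse. The 10 genes were chosen by symbol, 1 row each, among the 24079 rows of a table of raw RNA-seq counts, and all 10 passed the filter on low counts that left 15099 genes for testing. The series held 28 libraries of C57BL/6x129Sv cells. Clones 12 and 14 carried a tag on cyclin D1 (Ctag), and clones 18 and 25 carried untagged cyclin D1. Each tagged clone gave 1 library without treatment, 1 after overnight leptomycin B at 20 ng/mL, and 1 after overnight transfection with each of 6 siRNAs. These were the control SCR, the siRNAs FLAG and HA against epitope tags, and the siRNAs Qiagen, Nature and Life against cyclin D1. Each untagged clone gave 3 libraries, for the SCR, FLAG and HA siRNAs. Clone 18 was also studied after it had received mCherry/PURO or FLAG-mCherry-HA/PURO, with 2 libraries of HA siRNA and 1 of FLAG siRNA for each construct. All groups therefore shared the RAS and DNP53 background, and every line was 1 clone or derived from 1 clone.

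ERK, the last kinase of the RAS cascade, induces EGR transcription factors within minutes of a stimulus, and NAB2 binds EGR proteins and represses their activity. The DUSP4 and DUSP5 phosphatases remove the activating phosphates from MAP kinases in the nucleus, and DUSP6 does so in the cytoplasm. Sprouty and Spred proteins act upstream, between receptors, RAS and RAF. Most of these genes are transcribed when ERK is active and restrain it, so they serve both as brakes and as readouts of the pathway. Leptomycin B blocks the nuclear exporter XPO1, whose cargoes include DUSP6 and the ERK kinase MEK.

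Total counts ran from 26558256 to 81512769 per library. The largest total belonged to the SCR library of clone 12, in which 14132 genes had counts, fewer than in any other library. The siRNA labels were checked on cyclin D1 (Ccnd1): tagged clones held 1128 and 1287 CPM with SCR and 50.1 to 329 CPM with the 5 targeting siRNAs. CPM is a count divided by the TMM-scaled library total and set to a common library size. The untagged clones kept 1014 to 1293 CPM of Ccnd1 with FLAG and HA siRNA. Xpo1 itself went from 701 to 1238 CPM in clone 12 and from 635 to 1193 CPM in clone 14 with leptomycin B. Of the fibroblast markers, Vim was abundant in every line (2768 to 8406 CPM), whereas clone 14 nearly lacked Thy1 (0 to 0.0494 CPM), Col1a1 (0.292 to 0.967 CPM) and Col1a2 (0.201 to 2.24 CPM). Of the epithelial markers, Krt18 was at 929 to 1919 CPM there and 86.5 to 228 CPM in clone 12. The other lines lay above clone 12 too. Krt18 was at 368 to 612 CPM in clone 25, 600 to 1123 in clone 18 and 700 to 1164 in the mCherry lines. Cdh1 and Krt8 were also higher in clone 14 than in clone 12 (log2 differences 5.52 and 4.39). Epcam was lower (-1.98) and at most 0.867 CPM in any line, and Krt5 and Krt14 were at most 0.112 CPM.

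Per kilobase of annotated exon, Dusp6 was the most abundant of the 10 transcripts, with a median of 86.0 CPM per kilobase over the 28 libraries. Spry2 followed at 40.5, then Nab2 and Spred1 at 30.5 each and Dusp4 at 29.7. Egr1 had a median of 14.4, Spry4 of 12.1, Dusp5 of 6.69 and Egr3 of 4.79 CPM per kilobase. Egr2 was lowest at 0.618 CPM per kilobase, with 23 to 183 reads a library, so its changes carry the largest counting error. The ranges of neighbours in this order overlapped. Nab2 (chr10:127660918-127668568, minus strand, GRCm38) overlaps Nemp1 by 1668 bases, the antisense gene Gm16229 by 1646 bases and Stat6 by 40 bases, all on the other strand. The overlap with Nemp1 lies upstream of the RefSeq transcript start of Nab2, at base 127666703. Dusp5 (chr19:53529109-53542431, plus strand) overlaps the antisense gene AC137853.2 by 547 bases, and Spry4 overlaps 2 small RNA genes on the other strand, Gm27804 by 119 bases and Gm27369 by 71 bases. These overlaps are between whole gene spans, introns included. No source used here states whether counting used strand, so how reads in those overlaps were counted is not known.

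Leptomycin B lowered 5 of the 10 genes in the tagged clones and raised 0. Among all 15099 genes tested, 9.99% were called, 5.7% lower and 4.29% higher, with edgeR's quasi-likelihood test at a Benjamini-Hochberg adjusted p under 0.05. Log2 fold changes were below 0 for all 10 members, with a median of -0.48 against 0.0285 over all genes. The 5 called genes were Egr3, Dusp5, Egr1, Nab2 and Spry2. The clone was fitted as a block, so these p-values measure the spread of libraries around clone and treatment levels and not the spread between clones. In bulk RNA, fewer expressing cells and less RNA per cell cannot be told apart.

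Egr3, an EGR factor best known from muscle spindle and lymphocyte development, showed the steepest decline. It went from 22.1 to 3.01 CPM in clone 12 and from 25.0 to 5.17 CPM in clone 14. Both treated libraries lay below every other library of their clone. The log2 fold change was -2.55 (SE 0.28, adjusted p = 3.17e-05), which leaves 17.1% of the untreated level. Egr1, the most widely studied member of the family, was at 49.2 CPM in untreated clone 12 and 27.7 with the drug. In clone 14 it was at 102 CPM untreated and 36.7 CPM treated. The untreated and treated pairs did not overlap, and the log2 fold change was -1.19 (SE 0.20, adjusted p = 0.00106). The untreated library was the highest of the 8 libraries of clone 14, whose median was 51.9 CPM. The lowest of them, at 35.2 CPM, lay below the treated one. Egr2, which directs myelination in Schwann cells, stayed near its floor, at 2.23 and 2.48 CPM in clone 12 and 1.31 and 0.877 CPM in clone 14 without and with the drug. Its log2 fold change of -0.19 did not pass the test (95% interval -0.80 to 0.43, adjusted p = 0.757).

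Nab2, the corepressor of EGR proteins, fell in both clones by a similar factor. It went from 125 to 76.3 CPM in clone 12 and from 91.0 to 54.8 CPM in clone 14. The highest treated value lay below the lowest untreated one. Neither treated library was the lowest of its clone, as Nab2 reached down to 54.1 CPM in clone 12 and 40.5 CPM in clone 14. The same untreated libraries are also the control for SCR siRNA below. The log2 fold change with leptomycin B was -0.72 (SE 0.14, adjusted p = 0.0029). Without the untreated library of clone 12 the estimate was -0.61 and was not called (adjusted p = 0.0604). Of the overlapping genes, Nemp1 and Stat6 were tested and were not called, with log2 fold changes of 0.12 for Nemp1 (listed as Tmem194, adjusted p = 0.705) and -0.16 for Stat6 (adjusted p = 0.441). Gm16229 was not tested.

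**Figure D1:**
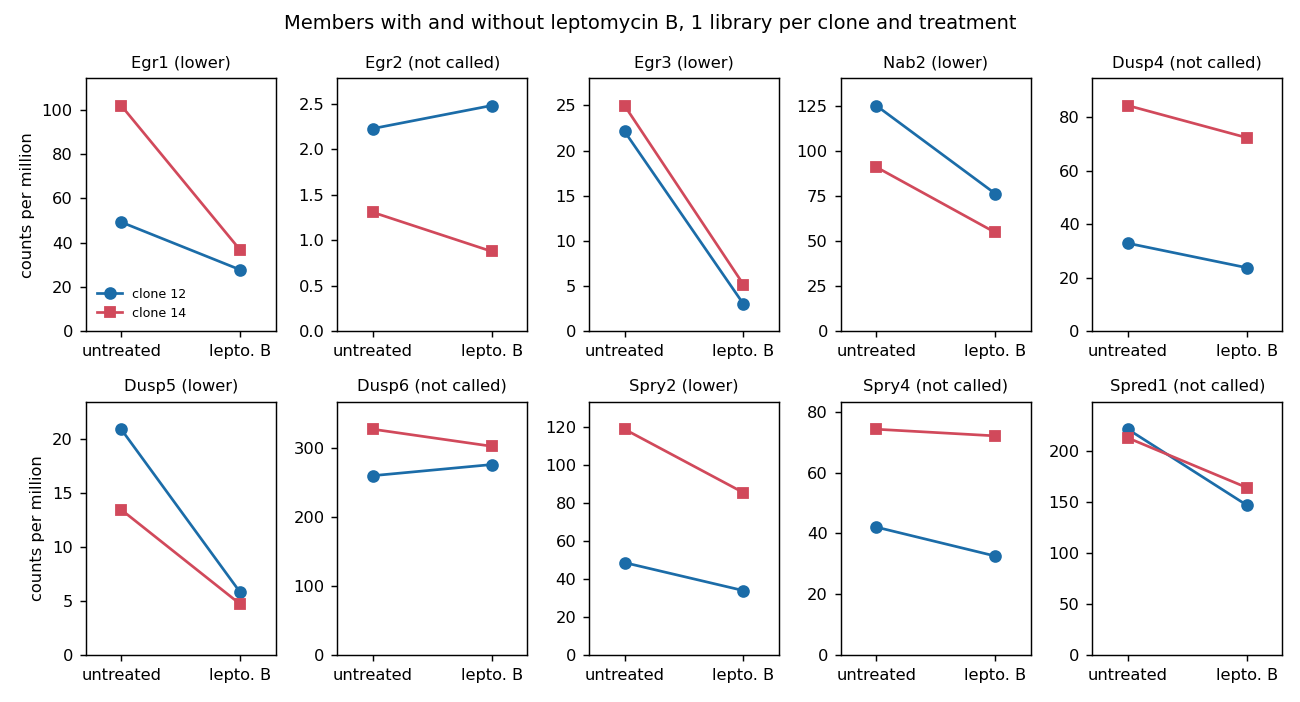
CPM (y axis, from 0) of each of the 10 genes in the untreated and leptomycin B libraries of clone 12 (circles) and clone 14 (squares), 1 library per point, lines joining libraries of 1 clone. Egr1, Egr3, Nab2, Dusp5 and Spry2 are lower with the drug in both clones, while Dusp6 and Egr2 move in opposite directions in the clones.

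Of the 3 ERK phosphatases, Dusp5 alone was called, and they were not tested against each other. Dusp5, a nuclear phosphatase specific for ERK, fell from 20.9 to 5.81 CPM in clone 12 and from 13.5 to 4.72 CPM in clone 14. No other library of the series was as low. Its log2 fold change was -1.67 (SE 0.23, adjusted p = 0.00024). Dusp4, the other nuclear phosphatase, was at 32.9 and 23.8 CPM in clone 12 and 84.4 and 72.4 CPM in clone 14, without and with the drug. It did not pass the test (log2 fold change -0.34, 95% interval -0.76 to 0.073, adjusted p = 0.306), although it was called when only the 4 libraries of this comparison were fitted (adjusted p = 0.0137). Dusp6, the cytoplasmic ERK phosphatase, was at 260 and 276 CPM in clone 12 and 327 and 302 CPM in clone 14. It was not called, and its interval spanned 0 (log2 fold change -0.012, 95% interval -0.33 to 0.30, adjusted p = 0.988).

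Spry2, a Sprouty inhibitor of receptor tyrosine kinase signalling, went from 48.5 to 33.8 CPM in clone 12 and from 119 to 85.3 CPM in clone 14. Values of the treated and untreated libraries overlapped across clones because clone 14 held more than 2 times as much Spry2 in both states. Its log2 fold change of -0.49 (SE 0.14) passed the test with adjusted p = 0.0313. That call was lost without the leptomycin B library of clone 12 (-0.35, adjusted p = 0.279) and without the untreated library of clone 14 (-0.33, adjusted p = 0.314). Spry4, its relative, was at 42.1 and 32.6 CPM in clone 12 and 74.4 and 72.2 CPM in clone 14, and was not called (log2 fold change -0.20, adjusted p = 0.498). Spred1, which recruits neurofibromin to inactivate RAS, was at 221 and 147 CPM in clone 12 and 212 and 164 CPM in clone 14. Its log2 fold change of -0.47 missed the threshold (95% interval -0.84 to -0.11, adjusted p = 0.0905), and it was called when only the 4 libraries of the comparison were fitted (adjusted p = 0.000141). Without the block for clone, none of the 5 genes was called, with adjusted p from 0.0641 for Egr1 to 1.00 for Spry2, and 77 of 15099 genes were called in all. Macrophage markers summed to 16.1 and 38.0 CPM in the untreated and 28.9 and 60.3 CPM in the treated libraries. Of their 5 genes in the table, Cd14 was the most abundant, at 9.12 to 22.1 CPM in clone 12 and 35.6 to 115 CPM in clone 14. It was not called (log2 fold change 0.72, adjusted p = 0.0806), and neither was Csf1r (0.17, adjusted p = 0.930). Cd68, at 1.13 to 5.31 CPM in clone 12 and 2.29 to 4.13 CPM in clone 14, rose (1.24, adjusted p = 0.0223). Lyz2 had 0 counts in the tagged clones and Ptprc was at most 0.459 CPM there. Their part in these changes was not tested.

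Upstream sequences were compared because EGR genes are textbook targets of serum response factor (SRF), which binds the CArG box, and because Dusp5 fell with the drug while Dusp6 was not called. RefSeq windows (GRCm38.p6) of 250 bases before the transcript start were searched for 6 of the 10 genes, Egr2 with several starts, and 4 are shown. Bases in annotated exons of protein-coding genes were left off, capitals mark CArG boxes, and positions count back from the RefSeq start.
Dusp5, chr19:53528895-53529108, plus strand: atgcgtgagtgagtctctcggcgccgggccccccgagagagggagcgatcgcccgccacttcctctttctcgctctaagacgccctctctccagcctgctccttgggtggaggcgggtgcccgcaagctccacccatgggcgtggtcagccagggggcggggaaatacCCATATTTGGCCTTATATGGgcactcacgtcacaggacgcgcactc
Egr2, chr10:67537619-67537868, plus strand: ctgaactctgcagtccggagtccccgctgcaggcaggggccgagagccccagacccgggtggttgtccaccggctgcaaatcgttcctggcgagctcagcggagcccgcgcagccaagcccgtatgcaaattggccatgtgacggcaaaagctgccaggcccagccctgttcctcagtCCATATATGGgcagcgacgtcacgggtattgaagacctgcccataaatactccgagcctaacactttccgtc
Dusp6, chr10:99262981-99263230, plus strand: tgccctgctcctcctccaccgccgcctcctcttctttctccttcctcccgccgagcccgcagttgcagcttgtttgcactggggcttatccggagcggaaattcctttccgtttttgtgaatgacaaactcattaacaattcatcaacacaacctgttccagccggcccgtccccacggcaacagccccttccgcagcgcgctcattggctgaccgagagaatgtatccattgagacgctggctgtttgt
Nab2, chr10:127666711-127666900, minus strand: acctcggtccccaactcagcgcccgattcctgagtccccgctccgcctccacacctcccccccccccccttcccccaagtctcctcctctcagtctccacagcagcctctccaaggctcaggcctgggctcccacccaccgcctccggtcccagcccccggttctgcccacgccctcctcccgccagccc
Dusp5 held 2 adjoining CArG boxes, at -82 to -73 and -72 to -63, and Egr2 held 1 at -72 to -63, and both carried the CRE core ACGTCA at -56 to -51. Another Egr2 window, ending at base 67537565, also held 1 CArG box, and the one ending at base 67535498 held 0. A CArG box occurred in 1.47% of 32851 windows of that length, and the CRE core in 6.47%. The whole windows of Dusp6, Nab2, Spry2 and Spred1 had 0 matches to either, to the EGR site GCGNGGGCG (4.7% of windows), to the AP-1 site TGANTCA (6.75%) or to the ETS core CCGGAA (12%), searched on both strands. The Egr2 window ending at base 67537565 held 3 matches to the ETS core. Of the 2 genes with CArG boxes, Dusp5 fell with leptomycin B, and Egr2, at 23 to 183 reads a library, was not called. Egr1 and Egr3, which fell, had no window searched, and the part of these sites in the changes was not tested.

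Other genes of the pathway were read from lists by role. Of the 7 other MAP kinase phosphatases, 3 fell and 1 rose with leptomycin B, where 5.7% of all genes were lower and 4.29% higher. Dusp16 (log2 fold change -1.20, adjusted p = 0.00132) and Dusp8 (-1.12, adjusted p = 0.00843), which act mainly on JNK and p38, and Dusp7 (-0.44, adjusted p = 0.0497), a cytoplasmic relative of Dusp6, were lower. Dusp1, an immediate early phosphatase, was higher (1.18, adjusted p = 0.0249). The median of this list was -0.44. Of 6 other brakes on RAS and its receptors, 3 fell and 0 rose, against the same shares of all genes, with a median of -0.56. Errfi1, an inhibitor of the EGF receptor, fell most (-1.69, adjusted p = 4.97e-05), followed by the RAS GTPase activators Rasal2 (-1.21) and Rasa2 (-0.57). None of the 3 tested members among the other Sprouty and Spred genes, and not Nab1, was called.

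The output genes of ERK split in direction. Of 18, 5 fell and 3 rose, where 5.7% of all genes were lower and 4.29% higher, and the list had a median of -0.25 against 0.0285 over all genes. Areg, which encodes the EGF receptor ligand amphiregulin, fell (log2 fold change -2.00, adjusted p = 4.98e-06), and so did Plaur (-0.89), the urokinase receptor. Fos rose (2.15, adjusted p = 0.000346), as did Etv1 (1.26), an ETS factor. Among 6 SRF and TCF factors, Mkl1 (-1.05), an SRF coactivator also known as MRTF-A, and Elk3 (-0.54) fell, and Elk1 (0.44) rose.

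**Figure D2:**
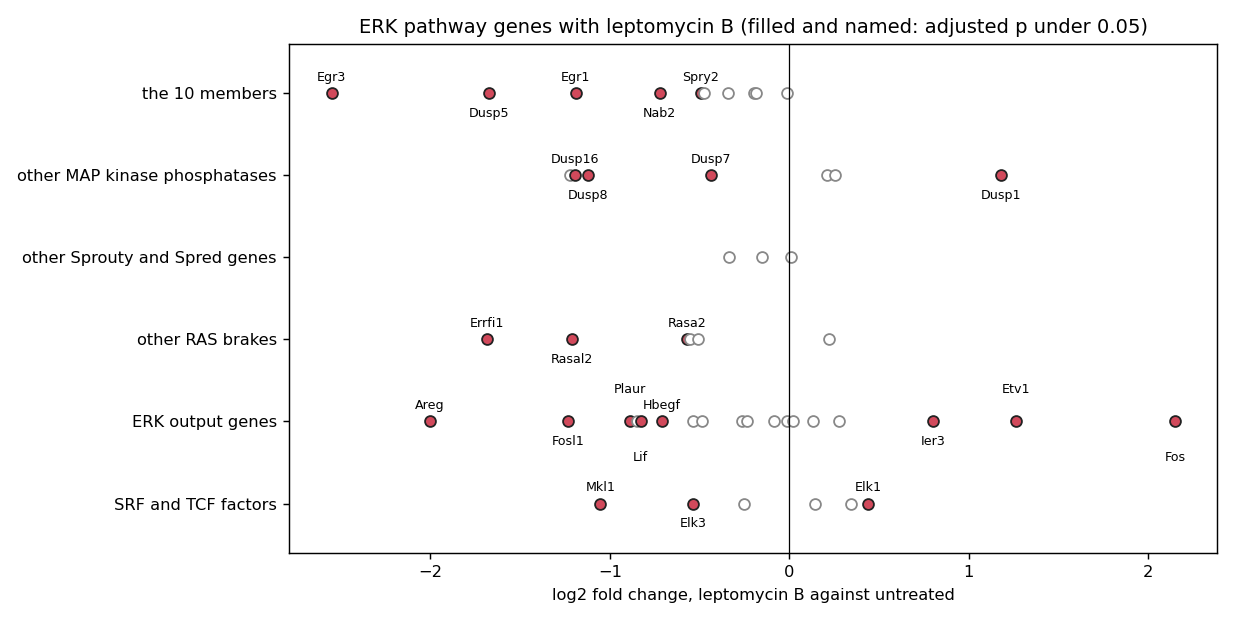
Log2 fold change with leptomycin B against untreated (x axis) for the 10 genes and 5 lists of related genes, 1 point per gene. Filled, named points had an adjusted p under 0.05; open points did not. The called genes of the top row and of the other RAS brakes are all at or below -0.49, whereas the called ERK output genes run from -2.00 for Areg to 2.15 for Fos.

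Among the siRNA comparisons, Nab2 was the member that most often passed the test. SCR siRNA against no treatment called 1 of 10 members, Nab2, where 5.29% of all genes were called, 3.61% lower. Nab2 was at 125 CPM untreated and 77.7 with SCR in clone 12, and at 91.0 and 62.4 CPM in clone 14. The 2 SCR values lay below both untreated values (log2 fold change -0.62, SE 0.14, adjusted p = 0.0163). Nemp1, which overlaps Nab2, had a log2 fold change of -0.51 here (adjusted p = 0.0733), and its part in the Nab2 value was not tested. Leaving out any 1 of the 4 libraries ended the call, with adjusted p of 0.0945 without SCR of clone 12, 0.083 without SCR of clone 14, 0.123 without untreated clone 12 and 0.0543 without untreated clone 14. Dusp6 had a log2 fold change of -0.49 in the same comparison and missed the threshold (adjusted p = 0.067), and Egr1 one of -0.56 (adjusted p = 0.104).

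Against SCR, the tag siRNAs FLAG and HA raised Nab2 in the tagged clones, again as the 1 member called, where 3.86% of all genes were called, 2.03% higher. In clone 12 FLAG gave 134 CPM and HA 108, compared with 77.7 CPM for SCR, and in clone 14 FLAG gave 113 and HA 98.7, compared with 62.4 CPM. All 4 targeting libraries lay above both SCR libraries. The log2 fold change was 0.69 (SE 0.12, adjusted p = 0.00306), and the call was lost without SCR of clone 12 (0.72, adjusted p = 0.0684). Against untreated cells, the same 4 libraries differed by 0.075 (95% interval -0.18 to 0.33, adjusted p = 0.678), and Spry4 was then the member called (-0.39, adjusted p = 0.0387), where 32.6% of all genes were called.

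In the untagged clones, which hold no tagged cyclin D1, Nab2 rose as well. In clone 18 it stood at 128 CPM after FLAG and 99.2 after HA, compared with 54.8 CPM after SCR, and in clone 25 at 72.1 and 65.2 compared with 41.9 CPM. Within each clone both tag siRNAs exceeded SCR, and the log2 fold change was 0.87 (SE 0.13, adjusted p = 0.000448). Nab2 was the 1 member called, where 2.68% of all genes were called, 1.21% higher, and the call was lost without SCR of clone 18 (0.71, adjusted p = 0.162). The response of tagged minus untagged clones was tested directly and differed by -0.18 for Nab2 (95% interval -0.54 to 0.18, adjusted p = 1.00). By edgeR, 0 of the 10 members were called for that difference, 0 had an unadjusted p under 0.05, DESeq2 called 0, and 0.00662% of all genes were called. The difference reuses the SCR libraries of both comparisons, while the tagged and untagged comparisons have no SCR library in common. Nemp1 had a log2 fold change of 0.39 with tag siRNA in the untagged clones (adjusted p = 0.236) and of 0.15 in the tagged clones (adjusted p = 0.569).

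**Figure D3:**
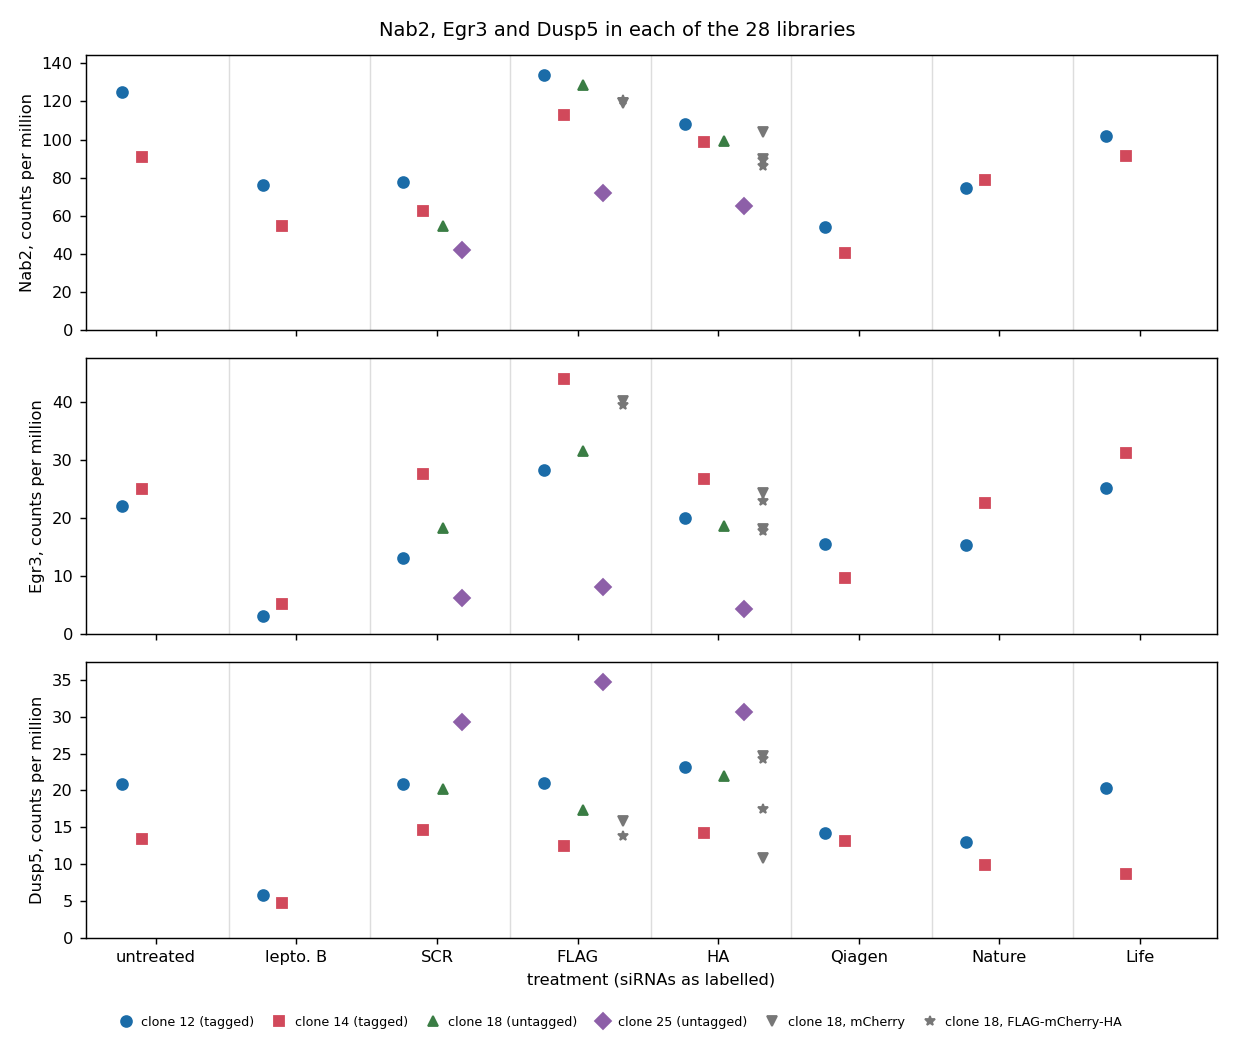
CPM (y axes, from 0) of Nab2, Egr3 and Dusp5 in each of the 28 libraries by treatment; colour and shape give the clone, grey marks the mCherry lines of clone 18. Nab2 is lower with SCR than with FLAG or HA in all 4 clones, and Egr3 and Dusp5 are lowest in their clones with leptomycin B.

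The 3 siRNAs against cyclin D1 itself were first averaged and called 1 member, Spry4, where 5.4% of all genes were called, 2.72% lower. Spry4 was at 33.8 CPM with SCR and 32.7, 23.2 and 26.8 CPM with Qiagen, Nature and Life in clone 12. In clone 14 it was at 78.5 CPM with SCR and 44.2, 51.6 and 49.7 CPM with the 3 siRNAs. All 6 targeting libraries lay below the SCR library of their clone, and the log2 fold change was -0.50 (SE 0.13, adjusted p = 0.0298). The call was lost without SCR of clone 12 (adjusted p = 0.083), SCR of clone 14 (0.308), Nature of clone 12 (0.0582), Life of clone 12 (0.0556), Qiagen of clone 14 (0.0585) or Life of clone 14 (0.0526). It was also lost when only the libraries compared were fitted (-0.52, adjusted p = 0.215). Untreated cells as the control gave a Spry4 difference of -0.61 (adjusted p = 0.00363), and 4 members were then lower, also Egr1 (-0.81), Nab2 (-0.60) and Spred1 (-0.43), where 23.7% of all genes were called. Nemp1 was lower with Nab2 in that comparison (-1.24, adjusted p = 2.04e-05), and its part in the Nab2 value was not tested.

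The 3 siRNAs did not move Nab2 in 1 direction. Against SCR, Qiagen called 2 members, Nab2 and Spry2, both lower. For Nab2, Qiagen gave 54.1 and 40.5 CPM in clones 12 and 14, below both SCR libraries (log2 fold change -0.57, adjusted p = 0.0213, where 5.33% of all genes were called). Spry2 had a log2 fold change of -0.53 (adjusted p = 0.0322), which was not called without any 1 of the 4 libraries (adjusted p from 0.0689 to 0.19). For Nab2, Life gave 102 and 91.6 CPM, above both (0.47, adjusted p = 0.0431, where 8.29% were called). Nature gave 74.4 and 78.6 CPM (0.14, adjusted p = 0.526), and called Spry4 alone of the members (-0.58, adjusted p = 0.036, where 8.56% were called). The mean over the 3 siRNAs for Nab2 was 0.015 (95% interval -0.22 to 0.25, adjusted p = 0.985), while Nemp1 was lower (-0.73, adjusted p = 0.00283). Each of these 3 contrasts had 2 libraries a side, and both Nab2 calls were lost without any 1 of their 4 libraries (adjusted p from 0.0553 to 0.181 for Qiagen and from 0.105 to 0.248 for Life). The Life call was also lost without the libraries over 2% Rn45s (0.35, adjusted p = 0.264), which include Life of clone 14. Set against the mean of the other 4 targeting siRNAs, Qiagen had lower Nab2 (-1.07), Egr3 (-0.95, adjusted p = 0.009) and Spry2 (-0.53, adjusted p = 0.0052), where 13.7% of all genes were called. Spry2 was at 39.7 and 70.8 CPM with Qiagen, below the 52.1 to 61.4 CPM of the other siRNAs in clone 12 and the 92.3 to 113 CPM in clone 14. Ccnd1 was less reduced by Qiagen (323 and 329 CPM) than by Nature and Life (50.1 to 73.7 CPM).

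**Figure D4:**
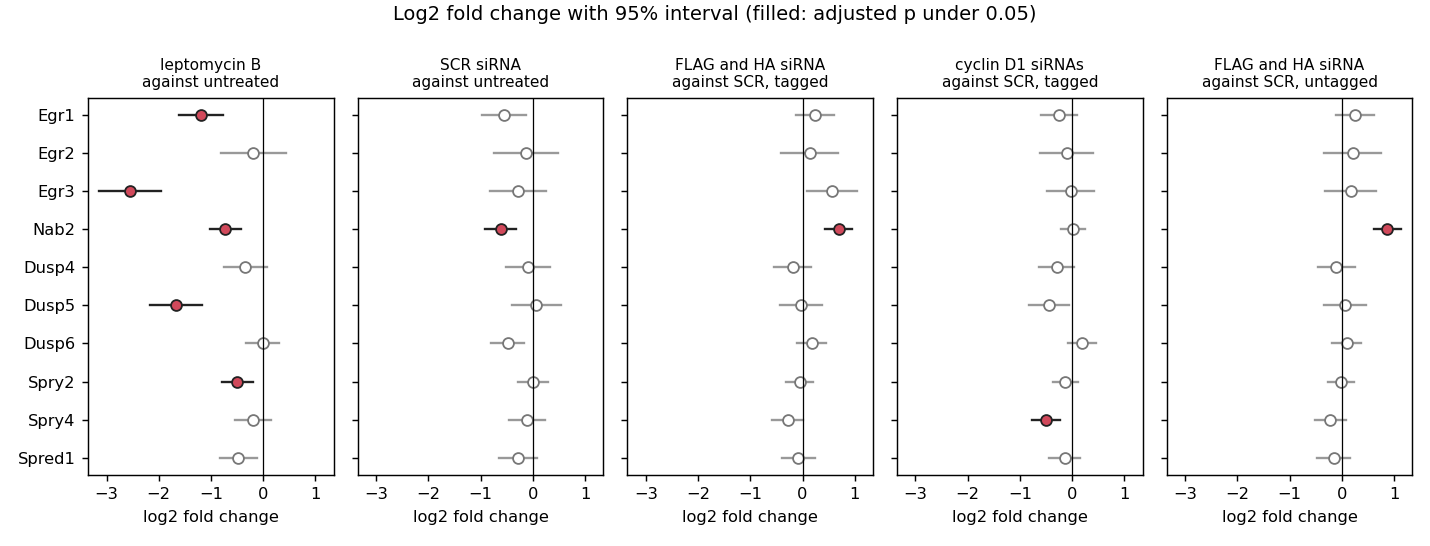
Log2 fold change (x axis) with its 95% interval for each of the 10 genes in 5 comparisons. Filled points had an adjusted p under 0.05. Leptomycin B calls 5 genes, all lower; SCR siRNA against untreated, the tag siRNAs in tagged and in untagged clones call Nab2, and the cyclin D1 siRNAs call Spry4.

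The pathway lists were also counted with siRNA. With tag siRNA in tagged clones, 1 of 7 other MAP kinase phosphatases and 2 of 18 ERK output genes were higher and 0 of either list were lower, where 3.86% of all genes were called. In the untagged clones, 2 of the 18 ERK output genes were higher and 1 was lower, where 2.68% of all genes were called. With cyclin D1 siRNA, 1 phosphatase and 1 output gene were higher and 0 of either list were lower, where 5.4% of all genes were called.

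FLAG and HA siRNA were given to the same lines in 6 pairs of libraries, and the 2 siRNAs differed from each other in 4 of the 10 members. The pairs of clone 18, of the mCherry line and of the FLAG-mCherry-HA line all derive from clone 18, so the 6 pairs cover only 4 clones. The test over 6 pairs was added after the values were seen, and it was not run without the block. In it 8.53% of all genes were called, 4.22% higher and 4.31% lower with HA. Egr3 was higher with FLAG in 6 of 6 pairs. It was at 28.2 CPM with FLAG and 20.1 with HA in clone 12, 43.97 and 26.6 in clone 14, 31.5 and 18.6 in clone 18, and 8.02 and 4.28 in clone 25. The mCherry line held 40.1 and 24.2 CPM, and the FLAG-mCherry-HA line 39.4 and 22.9 CPM. The HA minus FLAG difference was -0.73 on the log2 scale (SE 0.15, adjusted p = 0.00433), and it remained called in each of 18 alternatives (adjusted p at most 0.0452).

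Nab2 and Spry4 were also lower with HA than with FLAG in 6 of 6 pairs, by -0.31 (SE 0.08, adjusted p = 0.0196) and -0.37 (SE 0.09, adjusted p = 0.0176). Dusp6 went the other way, higher with HA in 6 of 6 pairs (0.37, SE 0.09, adjusted p = 0.0107), from 187 to 217 CPM in clone 12 and from 364 to 482 CPM in clone 25. Spry2 was higher with HA in 6 of 6 pairs too, by 0.20, and was not called (adjusted p = 0.15). Of the 6 HA libraries, those of clone 12 and of the mCherry line held over 2% of counts from the ribosomal RNA gene Rn45s. Without the 4 libraries of the series above 2%, Nab2 (-0.27, adjusted p = 0.108) and Spry4 (-0.34, adjusted p = 0.0914) were not called, while Egr3 and Dusp6 were. Single libraries also mattered. Nab2 was not called without FLAG of clones 12 or 18 or of the FLAG-mCherry-HA line, or HA of clone 18 or of the mCherry line. Spry4 was not called without FLAG of clones 12 or 18 or of the mCherry line, or HA of clone 14 or of the mCherry line, and Dusp6 not without HA of clone 14 or either mCherry library. The adjusted p in those fits ran from 0.0518 to 0.107.

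Lines with the FLAG-mCherry-HA construct were set against those with plain mCherry in 3 matched pairs. By edgeR 0 of 10 members were called, 0 had an unadjusted p under 0.05 and DESeq2 called 0, where 0% of all genes were called. The largest log2 difference was 0.25 for Spred1 (95% interval -0.040 to 0.55, adjusted p = 0.55). One library stood apart. The HA library of replicate 2 with mCherry held 57.6 CPM of Dusp4, against 94.7 to 117 CPM in the other 5, and 2.75% of its counts came from Rn45s.

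The lines themselves differed in most members. Between the 5 sets of libraries (4 clones and the mCherry lines of clone 18), line accounted for 90.7% of the variance of log2 CPM of Dusp4, 85.1% for Spry4 and 81.2% for Spred1. The shares were lowest for Egr3 (37.7%) and Nab2 (25.8%). The 5 sets did not hold the same treatments and treatment was not fitted here, so the shares can include treatment effects. Clone 14 against clone 12, over 8 shared treatments, called 9 of 10 members, where 62.6% of all genes were called, 29.2% higher and 33.4% lower, so the count is read against a high background. Dusp4 was at 17.6 to 32.9 CPM in clone 12 and 49.1 to 90.3 CPM in clone 14, without overlap (log2 difference 1.45, SE 0.10, adjusted p = 4.72e-10). Spry2 (1.00, adjusted p = 4.80e-10) did not overlap either, with 33.8 to 61.4 CPM against 70.8 to 119 CPM. Spry4 (0.89), Egr3 (0.41), Egr1 (0.36) and Dusp6 (0.29) were higher in clone 14 as well. Egr2 (-1.04), Dusp5 (-0.58) and Nab2 (-0.27) were lower there, and Spred1 was not called (-0.19, adjusted p = 0.0648). Both tested genes that overlap Nab2 were lower in clone 14 too, Nemp1 by -0.39 (adjusted p = 0.000547) and Stat6 by -0.16 (adjusted p = 0.0204). Egr3 was not called without the 4 libraries over 2% Rn45s (0.42, adjusted p = 0.0693). Clone 14 is also the line that nearly lacks Thy1, Col1a1 and Col1a2, and like the other lines it exceeds clone 12 in Krt18. The part of these markers in the differences was not tested.

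Clone 25 against clone 18, over 3 shared siRNAs, called 7 members, where 47.6% of all genes were called, 22.9% higher and 24.6% lower. Egr3 was at 18.3 to 31.5 CPM in clone 18 and 4.28 to 8.02 CPM in clone 25 (log2 difference -1.88, SE 0.22, adjusted p = 2.45e-06). Nab2 (-0.61) and Spred1 (-0.58) were lower with it in clone 25, as was Stat6 (-0.25, adjusted p = 0.0426), whereas Nemp1 was not called (-0.0025, adjusted p = 0.992). The reverse held for Egr2 (0.92), Spry4 (0.84), Dusp6 (0.73) and Dusp5 (0.67). Egr2 was not called without SCR of clone 25 or of clone 18, nor Dusp5 without FLAG of clone 25 or of clone 18 (adjusted p at most 0.0723 and 0.0854). Tagged and untagged clones with SCR, 2 clones a side and no block, differed in 0 of 10 members by edgeR, where 0% of 13233 genes were called. Of the members, 1 had an unadjusted p under 0.05, Spred1 (log2 difference -0.72, adjusted p = 1.00), and DESeq2 called 0.

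**Figure D5:**
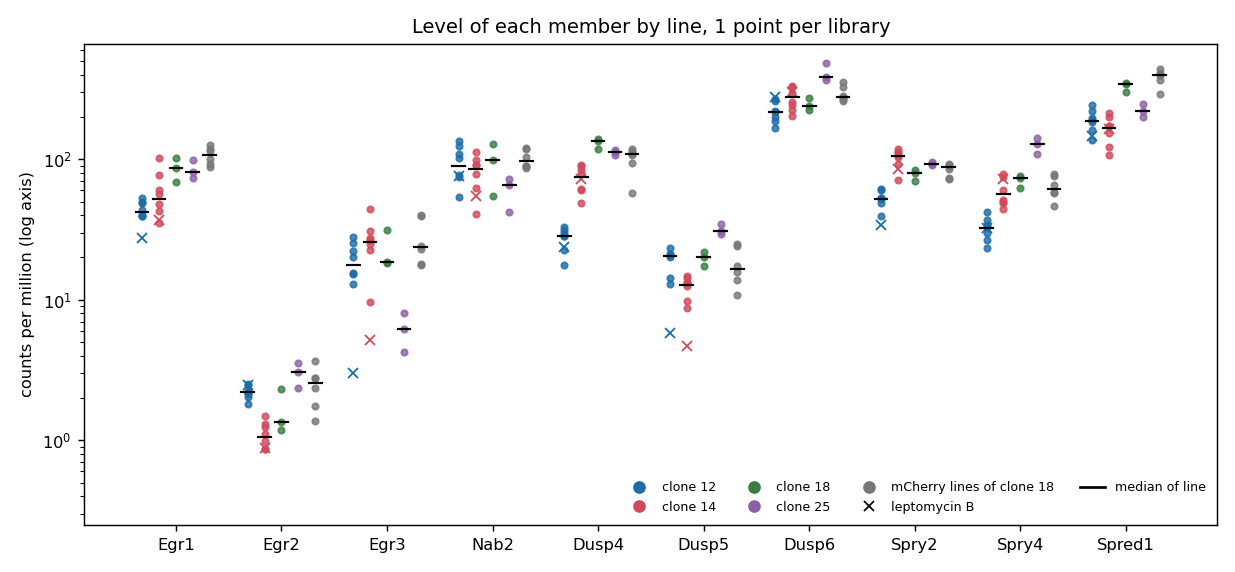
CPM (log axis) of each of the 10 genes, 1 point per library, grouped by line; crosses are leptomycin B libraries and bars are medians of the line. Dusp4 and Spry2 in clones 12 and 14 do not overlap, Egr3 is lowest in clone 25 apart from the leptomycin B libraries, and Egr2 is lowest throughout.

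After the mean of each line was subtracted, members varied together only in part over the 28 libraries. Dusp4 and Spred1 had the highest Pearson correlation of log2 CPM, 0.85, followed by Dusp4 and Spry4 (0.67). Egr3 correlated with Nab2 (0.61), with Egr1 (0.61) and with Dusp5 (0.58). Dusp6 ran against Dusp4 (-0.53) and Egr3 (-0.47). These are descriptions across libraries that share lines, treatments and controls. The search for like patterns covered 11772 genes averaging 1 CPM or more, by the same line-centred correlation. The closest pattern to Egr3 was that of Cd300lb (0.90), to Nab2 that of Zbtb42 (0.91), to Dusp5 that of Nol9 (0.90), to Spry2 that of Cdc37l1 (0.90) and to Egr1 that of Zfp746 (0.82). Dusp4 was closest to Gfod1 (0.89), Spred1 to Itga6 (0.89), Dusp6 to Tfam (0.87), Spry4 to Bcl2l2 (0.82) and Egr2 to Tmem198b (0.75).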

How the data were processed

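RNA was extracted after overnight treatment, and stranded poly(A) libraries were read as single ends of 100 bases, per the labels' protocols. The submitters' processing notes name HTSeq 0.6.1p1, TopHat2 2.0.13 and Bowtie2 2.2.3 with mm10, as well as FastQC and CASAVA 1.8.2. The authors deposited raw counts per gene, and no source used here states the strand setting or annotation. The titles carry an n whose meaning is not stated, so each library was taken as 1 sample, and nothing says that libraries of a group came from separate cultures beyond their clones.

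edgeR 4.0.16 (R 4.3.3) fitted the counts by robust quasi-likelihood, after filterByExpr and TMM scaling, over all 28 libraries, with 17 coefficients and 11 residual degrees of freedom. Benjamini-Hochberg adjustment ran over all genes tested, with a threshold of 0.05. The clone, or the matched pair of mCherry libraries, was a block, since numbers in the labels name the clone. As a check, deviations of same-clone libraries from their group mean correlated in all 62 pairs (lowest 0.802). In groups of 2 libraries the deviations of the 2 clones mirror each other, so the pairs of 1 clone repeat those of the other. Tagged and untagged clones were compared on their 4 SCR libraries, without a block. CPM came from the deposited counts with TMM factors, and log2 CPM used a prior count of 2. The 22 rows that carry a symbol but no ID, up to 0.0137% of counts, stayed in. Chi-square tests between libraries gave at least 14.6 per degree of freedom, so none was a repeat of another. Precision follows depth, and the biological coefficient of variation was 14.6%.

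The genes, the gene lists and the comparisons were chosen with earlier results of these data known. All 10 genes were named; of each list, up to 4 genes called with leptomycin B with the smallest p were named in the text. For each gene the pattern most like it was the highest Pearson correlation after subtracting line means. Alternatives were relative log expression size factors, no filter, a stricter filter, a non-robust fit, DESeq2 1.42.0, no replicate block, only the libraries compared, untreated controls for the siRNAs, and each library left out. The fit without 4 libraries rich in Rn45s and the pooled test of HA against FLAG siRNA were added after seeing the data. A list of genes of the kinase cascade is not reported here. Gene positions came from GENCODE vM21 and upstream sequences from RefSeq.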

Additional observations from a re-analysis of the deposited data

Results flagged for a closer look

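In each leptomycin B or siRNA comparison, the libraries of 1 clone can move one way and those of the other the opposite way; the difference between clones was not tested in these cases. All values are log2 differences in CPM. With leptomycin B against untreated, 1 library a side, Egr2 moved by 0.17 in clone 12 and -0.56 in clone 14, a difference of -0.73, and Dusp6 by 0.09 and -0.11, a difference of -0.20. With SCR against untreated, Egr3 moved by -0.77 in clone 12 and 0.14 in clone 14 (0.91), Spry2 by 0.10 and -0.08 (-0.18), and Spry4 by -0.32 and 0.08 (0.40). With tag siRNAs against SCR in the tagged clones, 2 libraries a clone, Dusp5 moved by 0.08 in clone 12 and -0.14 in clone 14 (-0.22), and Spry2 by 0.03 and -0.14 (-0.17).
With HA against FLAG siRNA, 2 pairs of libraries for each kind of line, Egr1 moved by 0.28 in the tagged clones but by -0.33 in the untagged clones (-0.61) and by -0.18 in the mCherry lines (-0.46).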

How the results depend on the processing

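Counts of called members kept within 1.5 times of their main value in most refits. Without the replicate block, the count fell to 0 for leptomycin B (from 5), SCR, tag siRNA in tagged clones, cyclin D1 siRNA and tag siRNA in untagged clones (from 1 each), and was 0 as before for the tagged minus untagged response and the mCherry lines. Other counts that moved were 2 for SCR with DESeq2 and without the libraries over 2% Rn45s (Nab2 and Dusp6), 2 for tag siRNA in tagged clones when only its libraries were fitted (Nab2 and Egr3), and, for cyclin D1 siRNA, 0 with only its libraries and 4 with untreated controls. With 1 library left out, the count ran from 4 to 5 for leptomycin B, 0 to 1 for SCR, 0 to 1 for tag siRNA in tagged clones, 0 to 1 for cyclin D1 siRNA, 0 to 1 for tag siRNA in untagged clones, 9 to 10 for clone 14 against 12, and 6 to 7 for clone 25 against 18, and stayed at 0 for the other 3. Where a group was left with 1 library, that library is assumed to vary like the others. Nab2 changed sign in the cyclin D1 comparison with untreated cells as control (-0.60, adjusted p = 0.00157), against 0.015 with SCR, which was not called. The 2 comparisons differ only in their control, and Nab2 was lower with SCR than in untreated cells. Why SCR differed from untreated cells was not tested. Changes of sign were counted only where one of the values was called. With leptomycin B, Egr1, Egr3 and Dusp5 lost their calls in 1 of 12 alternatives, the fit without the block. The median of all genes stayed within -0.067 and 0.069 in every setting. The block-free fit of the pooled HA against FLAG test was not run. Egr2, at 23 to 183 reads a library, is limited by depth.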
